A study of Mus musculus with 13 samples.

Results

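The genes described here carry the MHC class II route of antigen presentation: the chain genes H2-Aa, H2-Ab1 and H2-Eb1, the invariant chain gene Cd74, the class II transactivator gene Ciita, the peptide exchange genes H2-DMa and H2-DMb1, and the protease gene Ctss. They were chosen by symbol, for their known roles and with earlier results of these data known, and make up 8 of the 24394 genes in the count table. All 8 passed the filter on low counts and stood among the 17004 genes tested.

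The study programmed mouse embryonic fibroblasts (MEF) towards thymic epithelial cells (TEC) with Foxn1, the transcription factor that TEC need to form, and measured total RNA by sequencing in 13 libraries. The fibroblasts carried a Cre-inducible Foxn1 allele (iFoxn1/+), and induced TEC (iTEC) were made by nucleofection of a plasmid that drives Cre from the PGK promoter. There were 6 groups. Untreated MEF of E13.5 embryos made up 2 libraries. Of the iTEC, 2 libraries were made 2 days and 3 libraries 10 days after Cre, and those of day 12 were sorted into Epcam-positive (n = 2) and Epcam-negative cells (n = 2). Untreated fetal TEC of E15.5 embryos made up the last 2 libraries. The genotype field of the labels is empty for every sample, and the iFoxn1/+ allele is named in a protocol text that stands under all samples, fetal TEC included. Whether replicates were separate cultures or embryos is not stated in the labels, so the spread behind each p-value may be technical.

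Class II molecules show peptides to CD4+ T cells. An alpha and a beta chain (H2-Aa with H2-Ab1 for I-A, H2-Eb1 as the beta chain of I-E) fold around the invariant chain Cd74, which cathepsins trim, Ctss in macrophages and dendritic cells and Ctsl in cortical TEC, before H2-DM exchanges the remaining fragment for a peptide. Ciita does not bind DNA itself. It is recruited by the RFX, CREB and NF-Y factors that sit on the X and Y boxes of class II promoters, and interferon gamma can induce it, in part through Irf1. In the thymus, class II on TEC selects and tests developing CD4+ T cells, and macrophages, dendritic cells and B cells carry class II too.

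The promoters are shown first, because the X and Y boxes are where Ciita is recruited. The letters CTNGNAAC, taken for the X box, and TGATTGG, taken for the Y box, were searched on both strands of the RefSeq promoter windows (GRCm38.p6, 250 bases before to 50 bases after each start). These letters, those of the interferon-response element (GAAA, any 2 bases, GAAA) and the limit of 40 bases between X and Y were chosen after these promoters had been read. No window was matched for H2-Ab1 or Ciita, and Cd74 was left out. Windows of 5 of the 8 genes were examined, and those of H2-Aa, H2-Eb1 and H2-DMb1 held the X letters followed by the Y letters. The lines below give the 150 bases before the start of each of them, 5′ to 3′ on the strand of the gene, with the matched letters in capitals. They stand at chr17:34287824-34287973 on the minus strand for H2-Aa, at chr17:34305717-34305866 on the plus strand for H2-Eb1 and at chr17:34153041-34153190 on the plus strand for H2-DMb1.
H2-Aa: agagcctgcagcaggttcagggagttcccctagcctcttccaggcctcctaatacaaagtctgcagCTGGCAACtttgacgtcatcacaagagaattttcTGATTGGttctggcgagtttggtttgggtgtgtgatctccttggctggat
H2-Eb1: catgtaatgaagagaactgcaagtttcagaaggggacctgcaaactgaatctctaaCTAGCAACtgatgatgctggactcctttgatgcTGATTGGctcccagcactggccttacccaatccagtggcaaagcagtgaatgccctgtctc
H2-DMb1: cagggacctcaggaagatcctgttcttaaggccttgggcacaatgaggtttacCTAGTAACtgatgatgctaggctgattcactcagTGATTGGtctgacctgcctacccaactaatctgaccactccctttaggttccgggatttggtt

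The gap between the X and Y letters was 26 bases in H2-Aa, 25 in H2-Eb1 and 26 in H2-DMb1, and the X letters began 84, 94 and 97 bases before the start in the same order. The X letters alone occurred in 13.1% and the Y letters alone in 7.8% of the 32817 promoter windows. The ordered pair, with letters and limit chosen after these promoters had been read, occurred in 31 windows (0.0945%). H2-Ob and Rfx5, which belong to the class II route as well, were among them. So were genes outside the class II lists used here, such as Plk1, Dnmt1 and Pou3f2. Both windows of H2-DMa held neither motif, and the start of the second did not match a GENCODE transcript of the gene.

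The Ctss window held none of the X or Y letters but 1 match to the interferon-response letters, which occurred in 3.43% of windows. The stretch is shown because Ctss followed another course than the chain genes, and it stands at chr3:95526636-95526785 on the plus strand.
Ctss: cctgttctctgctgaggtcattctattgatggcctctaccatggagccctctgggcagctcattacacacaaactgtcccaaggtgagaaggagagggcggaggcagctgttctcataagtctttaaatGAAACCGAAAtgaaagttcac

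H2-Ab1 (chr17:34257689-34269419), Ciita (chr16:10480059-10528418) and Cd74 (chromosome 18) are named without sequence. A match to a motif is a description of the letters and says nothing on binding in these cells.

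Library totals were 35805780 to 86465460 counts, so that 3 counts in 1 library corresponded to 0.0300 to 0.0776 CPM. Levels are CPM, counts scaled to a fixed library size by TMM (edgeR's trimmed-mean scaling), and levels of different genes are compared only as CPM per kb of exon. Foxn1, the induced gene, averaged 15.6 CPM in MEF, 341 at day 2, 431 at day 10, 309 in Epcam-positive cells, 429 in Epcam-negative cells and 362 in fetal TEC. The libraries also differed in ways the groups do not define. In 3 libraries, replicate 2 of the Epcam-positive cells and the fetal TEC pair, relative counts fell with transcript length. Relative counts are each gene's deviation from its mean level over all libraries. Their Spearman rho with length across genes was -0.416 to -0.377, against 0.235 to 0.370 in the other 10. The levels themselves had a rho with length of -0.062 to 0.00076 in these 3 libraries, against 0.290 to 0.336 in the other 10. Xist stood at 0 to 1.27 CPM in day 2, day 10 and Epcam-positive libraries and at 688 to 2475 CPM in Epcam-negative and MEF libraries, and Y-linked genes were the reverse, so embryo and treatment cannot be told apart where these sets are compared. Fetal TEC held 6.17 and 10.6 CPM of Xist beside Y-linked reads.

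RNA of cell types that can carry class II was present in some libraries. The summed level of 18 macrophage and monocyte genes was 3652 and 4041 CPM in MEF, 30.1 and 31.9 CPM at day 2, 65.1 to 72.8 CPM at day 10, 313 and 329 CPM in Epcam-positive cells, 54.0 and 69.2 CPM in Epcam-negative cells and 956 and 1072 CPM in fetal TEC. C1qa, a complement gene of macrophages, was at 266 and 180 CPM in MEF, at 0 in every day 2, day 10 and Epcam-negative library, at 25.4 and 0 CPM in Epcam-positive replicates 1 and 2, and at 7.76 and 13.8 CPM in fetal TEC. Lyz2, the lysozyme gene of myeloid cells, was at 1479 and 1424 CPM in MEF, at 0.0774 to 0.216 CPM in the day 2, day 10 and Epcam-negative libraries, at 76.1 and 4.72 CPM in sorted Epcam-positive cells and at 309 and 424 CPM in fetal TEC. Csf1r, the receptor that macrophages depend on, was at 163 and 150 CPM in MEF, at 19.4 and 0.436 CPM in the same Epcam-positive replicates and at 15.52 and 8.95 CPM in fetal TEC.

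The Epcam-positive pair thus reached a like sum with different genes. In replicate 2, 10 of the 18 genes were at 0, and Fcgr3 (240 CPM) and Cd14 (64.7 CPM) made up most of the sum. In replicate 1, none was at 0. The sum in fetal TEC came mostly from Laptm5, a gene of blood cells (446 ± 65.8 CPM), and Lyz2 (367 ± 81.8 CPM, SD, n = 2). No other gene of the 18 averaged more there than Ptprc, at 46.5 CPM. Fcgr3 was the largest part at day 10 (48.3 CPM on average) and in Epcam-negative cells (37.1 CPM). Fetal TEC had all 10 T lineage genes detected, with a summed level of 1314 and 631 CPM. In MEF the same list summed to 607 and 1112 CPM with 7 of the 10 at 0, mostly through Thy1, which fibroblasts also express and which averaged 7.38 CPM in fetal TEC and 859 CPM in MEF. In fetal TEC the 10 dendritic cell genes summed to 136 and 121 CPM, with Ccr7 at 70.3 and 69.9 CPM and Ccl22 at 32.4 and 43.1 CPM, against sums of 1.85 to 7.75 CPM in all other libraries. Xcr1 went the other way, averaging 0.8 CPM in fetal TEC, 4.82 CPM at day 2 and 4.58 CPM at day 10. Zbtb46 stood at 5.66 CPM in 1 fetal TEC library and 25.9 CPM in the other, and averaged 2.05 CPM in MEF. Flt3 averaged 2.96 CPM in fetal TEC and was at 0 in all other groups. Clec9a and Siglech were at 0 in fetal TEC. The B cell genes, 7 of which are in the table, summed to 40.3 and 27.2 CPM in fetal TEC, with Cd79b at 20.8 and 18.1 CPM, and the 7 endothelial genes to 83.8 and 54.1 CPM. The B cell sum was higher in MEF, at 48.8 and 107 CPM, and at day 2, at 53.6 and 43.8 CPM, mostly through Ebf1. Ebf1 averaged 11.1 CPM in fetal TEC, 76.2 CPM in MEF and 48.7 CPM at day 2. Pax5, a defining B cell gene, and Itgax, the integrin that marks dendritic cells, were at 0 in both fetal TEC libraries. In bulk RNA, fewer cells of a type and less RNA per cell cannot be told apart.

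**Figure D1:**
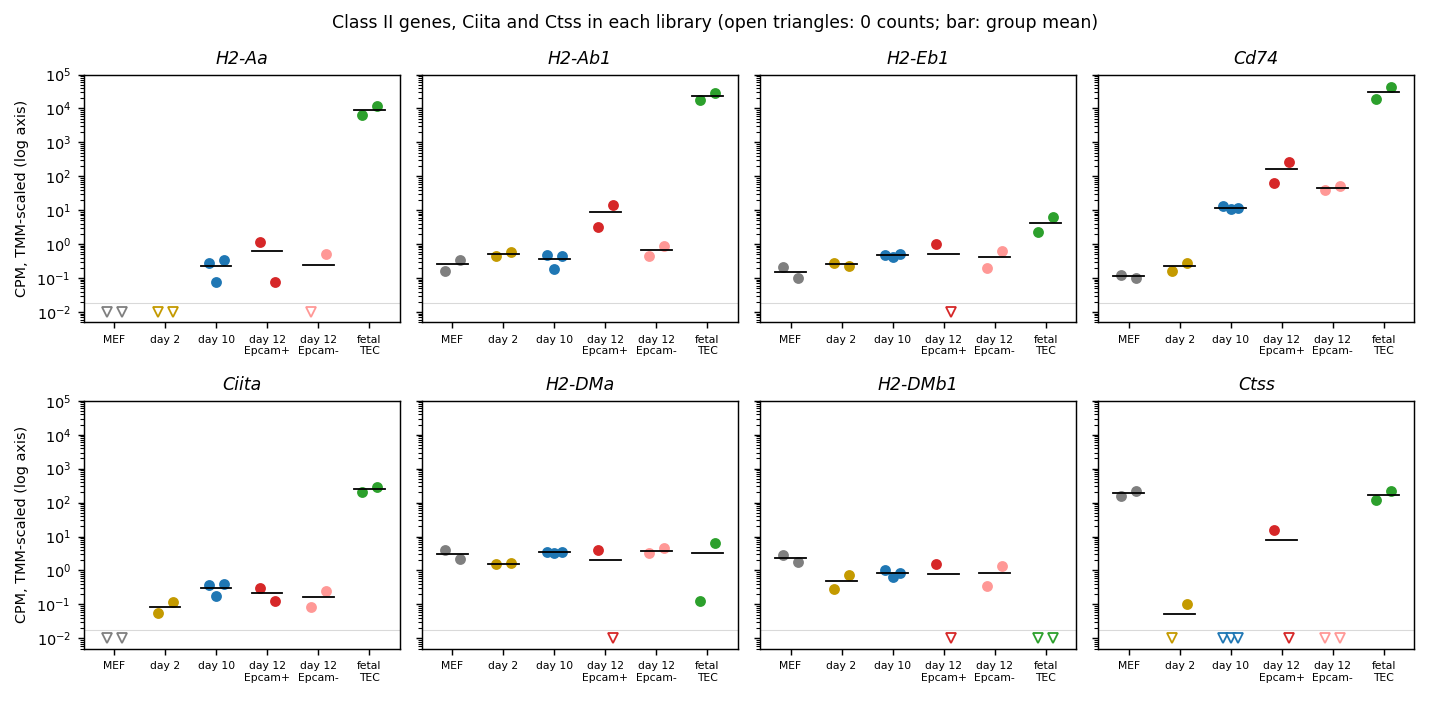
Each panel plots 1 gene on a logarithmic axis of TMM-scaled CPM, with 1 point per library in the 6 groups, a bar at the group mean and open triangles for libraries with 0 counts. Cd74 climbs through the iTEC groups to 259 CPM while H2-Aa, H2-Eb1 and Ciita stay below 1.2 CPM there, and fetal TEC stands far above for H2-Aa, H2-Ab1, Cd74 and Ciita.

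Fetal TEC expressed the I-A pair and the invariant chain at levels that no MEF-derived library approached. H2-Ab1 stood at 17642 and 28335 CPM, H2-Aa at 6555 and 11785 CPM and Cd74 at 19476 and 41833 CPM in the 2 fetal TEC libraries. Ranked by CPM per kb among 23350 genes with a length, Cd74 was 5th and 4th, H2-Ab1 4th and 5th, and H2-Aa 10th in both. Ciita, at 208 and 286 CPM, held ranks 2923 and 2442.

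Against MEF, 5 of the 8 genes rose in fetal TEC and 1 fell by edgeR's quasi-likelihood test with Benjamini-Hochberg adjustment over all tested genes (adjusted p under 0.05). The background in that comparison was 57.8% of all genes called, with 31.5% higher and 26.3% lower, so single calls there are common. The median log2 change of the 8 genes was 10.61, or 9.02 with the 3 genes at 0 in a group (H2-Aa, Ciita, H2-DMb1) at their bounds, beside 0.18 over all genes tested. For H2-Ab1, which had no more than 17 counts in a MEF library, the log2 change in fetal TEC against MEF was 16.48 ± 1.25 (SE, adjusted p = 3.68e-05). For Cd74, which had 9 and 5 counts in MEF, it was 18.02 ± 1.17 (adjusted p = 1.98e-05). H2-Aa and Ciita had no count in MEF and were at least 373600-fold (adjusted p = 0.00123) and at least 10050-fold (adjusted p = 4.01e-05) higher in fetal TEC, bounds that take 3 counts over the MEF group and cover counting error only. The groups did not overlap for any of these 4 genes.

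The macrophage sum was 956 and 1072 CPM in fetal TEC, mostly from Laptm5 and Lyz2, below the 3652 and 4041 CPM of MEF, in which the chain genes and Cd74 had at most 17 counts each. The part of macrophages, dendritic cells and B cells in the class II level of fetal TEC was not tested. All 10 TEC markers were called higher in fetal TEC than in MEF, beside 31.5% of all genes higher. So were 9 of 10 T lineage, 5 of 6 tested dendritic cell, 5 of 7 endothelial and 2 of 4 tested B cell markers. In these lists 1 T lineage and 1 B cell gene were called lower.

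H2-Eb1, the beta chain of I-E, did not share the level of the I-A genes. It stood at 2.24 and 6.15 CPM in fetal TEC and at 0.207 and 0.1 CPM in MEF, with a log2 change of 4.74 ± 1.62 (adjusted p = 0.0306). Per kb of exon it reached 0.00974% and 0.0125% of the Cd74 level in fetal TEC, where H2-Aa reached 42.2% and 35.4% and H2-Ab1 106% and 79.1%. The call for H2-Eb1 was lost with a correction for transcript length (log2 change 3.30, adjusted p = 0.0878), with replicate number as a block (adjusted p = 0.0673) and without any 1 of 5 libraries, both MEF, both day 2 and fetal TEC replicate 2 (adjusted p = 0.0511 to 0.163). H2-Eb1 overlaps Gm20513 on the opposite strand. The labels and notes do not say how reads shared by near-identical class II genes or by overlapping genes were counted, so that single genes of the family are uncertain.

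Cd74, the invariant chain, differed between the iTEC groups. It stood at 0.124 and 0.1 CPM in MEF, at 0.163 and 0.286 CPM at day 2 and at 13.6, 10.8 and 11.4 CPM at day 10. All day 10 libraries were above all day 2 and MEF libraries. At day 12 it stood at 63.0 and 259 CPM in Epcam-positive cells and at 40.1 and 53.3 CPM in Epcam-negative cells. The lowest Epcam-positive library was above the highest Epcam-negative one, and every day 12 library was above every day 10 library.

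Day 10 against MEF, Cd74 rose by a log2 change of 6.69 ± 0.81 (adjusted p = 0.00065). Day 10 against day 2, where Xist and Y-linked levels were alike, Cd74 rose by 5.70 ± 0.76 on the log2 scale (adjusted p = 0.0013). Epcam-negative against MEF, it rose by 8.66 ± 0.89 on the log2 scale (adjusted p = 0.000332). All 3 calls held under every alternative tried, with adjusted p-values up to 0.0164, 0.0314 and 0.00985 in that order. Day 2 against MEF, the log2 change of 0.99 ± 0.76 did not pass the test (adjusted p = 0.613).

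Ordered by mean, Cd74 was highest in fetal TEC (30654 ± 15809 CPM, SD, n = 2), then in Epcam-positive cells (161 ± 138 CPM, n = 2), Epcam-negative cells (46.7 ± 9.33 CPM, n = 2), day 10 (11.9 ± 1.47 CPM, n = 3), day 2 (0.225 ± 0.0867 CPM, n = 2) and MEF (0.112 ± 0.017 CPM, n = 2). The neighbours that did not differ beyond their spread in a test were Epcam-positive and Epcam-negative cells (adjusted p = 0.206) and day 2 and MEF (adjusted p = 0.613). Day 10 and Epcam-negative cells were not tested against each other. Of the 18 macrophage genes, 8 were at 0 in each day 10 library and 7 in each Epcam-negative library, C1qa among them, and Csf1r stood at 0.144 to 0.388 CPM there. Day 10 against day 2, 2 of the 18 were called, both higher, near the background of 12.6% of all genes called (8.24% higher). Fcgr3, an Fc receptor gene, averaged 48.3 ± 4.71 CPM at day 10 and 3.11 ± 0.0335 CPM at day 2, and Laptm5, a lysosomal membrane gene of blood cells, 2.16 ± 0.248 and 0.167 ± 0.0572 CPM (SD, n = 3 and 2). Day 10 against MEF, 15 of the 18 were lower, beside 6.58% of all genes lower, and the others were not called. The part of macrophage reads in the Cd74 level was not tested.

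Of the chain genes, H2-Ab1 stayed low through day 10 and stood higher in Epcam-positive than in Epcam-negative cells. It stood at 0.166 and 0.341 CPM in MEF, 0.435 and 0.585 CPM at day 2 and 0.48, 0.179 and 0.44 CPM at day 10. Day 10 lay among the MEF and day 2 values, and neither day 10 against MEF (log2 change 0.57 ± 0.73, adjusted p = 0.684) nor day 10 against day 2 (log2 change -0.46 ± 0.69, adjusted p = 0.786) passed the test. In Epcam-positive cells H2-Ab1 stood at 3.20 and 14.2 CPM, against 0.46 and 0.861 CPM in Epcam-negative cells.

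H2-Aa had no count in MEF or at day 2. It had 18, 3 and 13 counts at day 10, 103 and 3 counts in Epcam-positive replicates 1 and 2, and 0 and 50 counts in Epcam-negative replicates 1 and 2. Day 10 against MEF it was at least 9.39-fold higher, without passing the test (adjusted p = 0.179). DESeq2's Wald test (adjusted p = 0.048) and edgeR on only these 2 groups (adjusted p = 0.0246) called it, and the Wald test also called it day 10 against day 2 (adjusted p = 0.0486). Epcam-negative cells overlapped MEF at 0. H2-Eb1 had 15 and 5 counts in MEF, 15 and 18 at day 2, 31, 16 and 20 at day 10, 87 and 0 in Epcam-positive cells and 14 and 65 in Epcam-negative cells. None of its changes among these groups passed edgeR's test on all 13 libraries (unadjusted p = 0.275 to 0.858), and DESeq2's Wald test called none of them either. On only the groups compared, edgeR called H2-Eb1 higher at day 10 than in MEF (log2 change 1.56, adjusted p = 0.0293). The same setting called it higher at day 10 than at day 2 (log2 change 0.87, adjusted p = 0.0403).

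The level of H2-Ab1 per kb was 1.95% to 4.51% of that of Cd74 at day 10, 5.93% and 6.42% in Epcam-positive cells and 1.34% and 1.89% in Epcam-negative cells, against 106% and 79.1% in fetal TEC. H2-Aa reached 0.897% to 3.71% at day 10, 2.36% and 0.0374% in Epcam-positive cells and 0% and 1.18% in Epcam-negative cells, against 42.2% and 35.4% in fetal TEC. Every iTEC library of days 10 and 12 was thus below both fetal TEC libraries in both ratios, which are descriptions without a test. Within fetal TEC, H2-Aa stood at 0.399 and 0.447 of the H2-Ab1 level per kb.

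**Figure D2:**
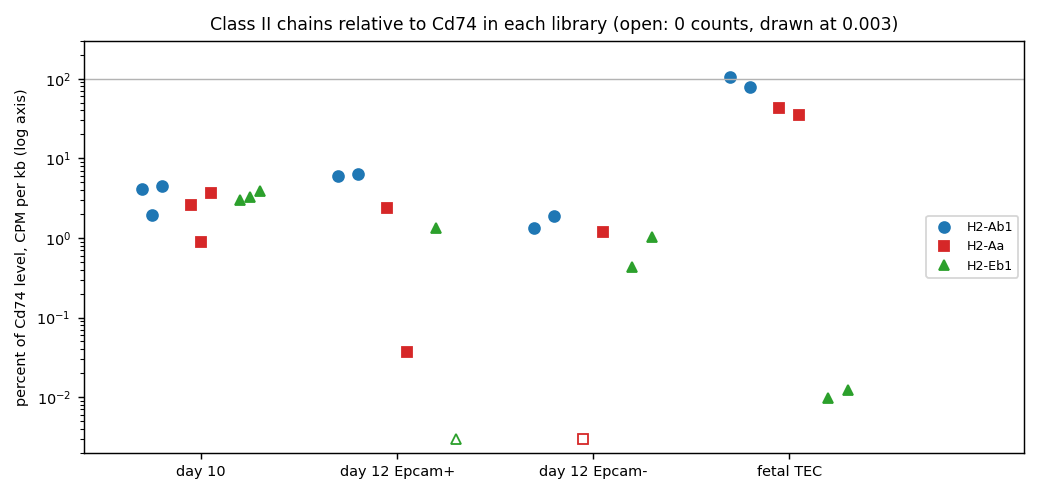
The level of H2-Ab1, H2-Aa and H2-Eb1 per kb of exon is plotted as a percentage of the Cd74 level in the same library on a logarithmic axis, with open symbols for 0 counts. H2-Ab1 lies between 1.34% and 6.42% of Cd74 in the plotted iTEC libraries of days 10 and 12 and at 106% and 79.1% in fetal TEC, and H2-Eb1 lies lowest in fetal TEC among the libraries where it was detected.

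Ciita, the transactivator of the route, was detected at low counts in every iTEC library. It had 0 counts in both MEF libraries, 3 and 9 at day 2, 24, 7 and 15 at day 10, 27 and 5 in Epcam-positive cells and 6 and 24 in Epcam-negative cells. The groups at days 10 and 12 overlapped each other, and none overlapped MEF. Day 10 against MEF, Ciita rose at least 12.8-fold (adjusted p = 0.00454), and Epcam-negative against MEF it rose at least 6.65-fold (adjusted p = 0.015). The call in Epcam-negative cells was lost with replicate number as a block (adjusted p = 0.0523), without either MEF library (adjusted p = 0.0787 and 0.0773 without replicates 1 and 2) and without Epcam-negative replicate 2 (adjusted p = 0.0784). Day 2 against MEF, Ciita was at least 3.49-fold higher and did not pass the test (adjusted p = 0.0591), and day 10 against day 2 its log2 change of 1.82 ± 0.64 did not pass either (adjusted p = 0.108). DESeq2's Wald test called both as higher (adjusted p = 0.0232 and 0.0455 in that order). On only the groups compared, edgeR called Ciita higher at day 10 than at day 2 (log2 change 1.78, adjusted p = 0.0234).

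The iTEC level of Ciita was 0.0544 to 0.388 CPM, against 208 and 286 CPM in fetal TEC. Day 10 against fetal TEC, the log2 change was -9.60 ± 0.67 (adjusted p = 2.95e-05), and Epcam-positive cells against fetal TEC it was -10.06 ± 0.82 (adjusted p = 0.000126). With the correction for transcript length these became -11.90 and -11.25. Ciita has 8225 bases of exon, the most of the 8 genes. It overlaps Dexi on the opposite strand, and the labels and notes do not say whether counting used strand.

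Across day 10 against MEF, 2 of the 8 genes rose (Cd74, Ciita) and 1 fell (Ctss), beside a background of 9.42% of all genes higher and 6.58% lower, 16% in all. The median log2 change of the 8 was 1.08, beside 0.00 over all genes. Day 10 against day 2, 1 was called (Cd74, higher), beside 8.24% of all genes higher and 4.41% lower (12.6% in all), with a median of 1.0 beside 0.02. Epcam-negative against MEF, 2 rose (Cd74, Ciita) and 1 fell (Ctss), beside 7.37% higher and 4.53% lower (11.9% in all), with a median of 1.43 beside 0.00. Day 2 against MEF, edgeR called 0 of the 8 genes, beside 2.87% of all genes higher and 2.65% lower (5.52% in all). In that comparison 2 had an unadjusted p under 0.05 and DESeq2's Wald test called 2, Ciita higher and Ctss lower. The comparisons with MEF share the same 2 MEF libraries.

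**Figure D3:**
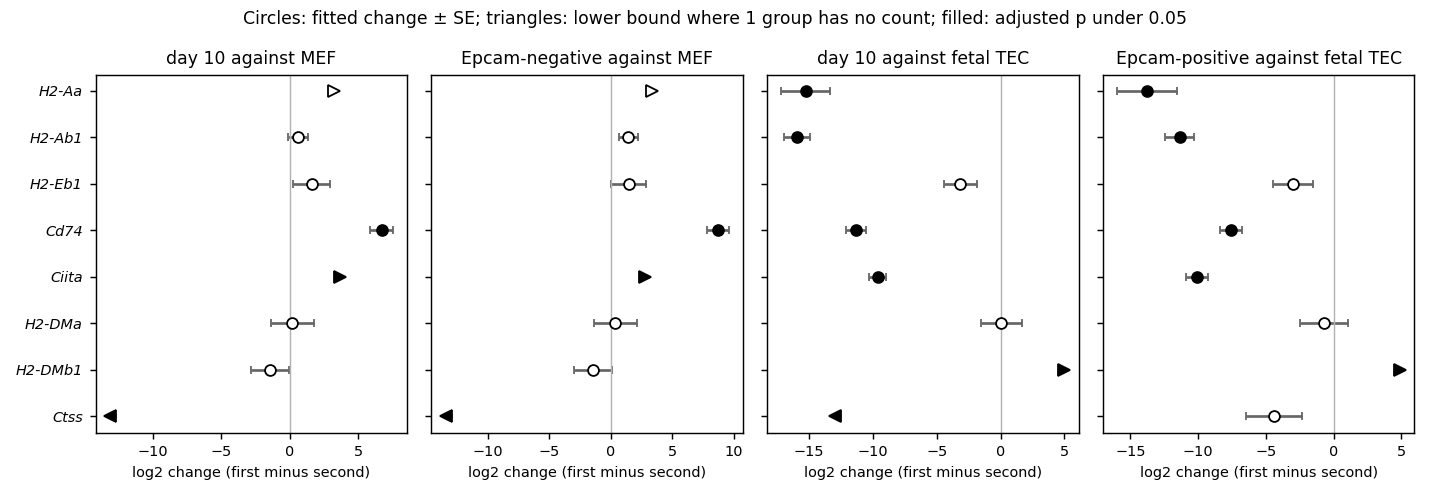
Log2 changes of the 8 genes with their standard errors are plotted for day 10 and Epcam-negative cells against MEF and for day 10 and Epcam-positive cells against fetal TEC, with triangles for lower bounds and filled symbols for adjusted p under 0.05. Cd74 lies right of 0 against MEF and left of 0 against fetal TEC, and Ctss, drawn at its bound, lies far left of 0 against MEF.

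Between the sorted fractions of day 12 edgeR called 0 of the 8 genes, beside a background of 0.259% of all genes (0.241% higher, 0.0176% lower). At an unadjusted p under 0.05 there were 3 (H2-Ab1, Cd74 and Ctss), and DESeq2's Wald test called the same 3 higher in Epcam-positive cells. H2-Ab1 had a log2 change of 3.71 ± 0.78 (adjusted p = 0.104) and Cd74 one of 1.78 ± 0.63 (adjusted p = 0.206), Epcam-positive against Epcam-negative. The 2 Epcam-positive libraries differed widely from each other. Without Epcam-positive replicate 1, Cd74 (log2 change 2.47, adjusted p = 0.000832) and H2-Ab1 (4.40, adjusted p = 0.000114) passed the test as higher, and H2-DMa (-10.87, adjusted p = 0.0226), H2-DMb1 (-8.71, adjusted p = 0.00961) and H2-Eb1 (-7.69, adjusted p = 0.00955) as lower. Without replicate 2, Cd74 stood at 0.43 (adjusted p = 0.899) and H2-Ab1 at 2.25 (adjusted p = 0.0509), and Ctss passed as higher (12.96, adjusted p = 0.00744). In each of these fits 1 library stands for the Epcam-positive cells and is assumed to vary like the other groups.

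Epcam itself stood at 4.80 and 30.6 CPM in Epcam-positive replicates 1 and 2 and at 0.56 and 0.29 CPM in Epcam-negative cells. The unsorted day 10 libraries had 5.03 to 5.53 CPM, above Epcam-positive replicate 1. The replicate with more Epcam had the higher Cd74 and H2-Ab1 and was in the set whose relative counts fell with length. Its 10 TEC markers summed to 40495 CPM and its 8 fibroblast markers to 2828 CPM, while replicate 1 had 4412 and 30094 CPM of these. Replicate 2 had no count of H2-Eb1, H2-DMa, H2-DMb1 or Ctss. Replicate 1 carried the macrophage genes C1qa, Lyz2 and Csf1r and had all 8 class II route genes detected. The part of macrophage reads, of the TEC and fibroblast genes and of the length trend in this difference was not tested, and the sorted fractions also differed in Xist and Y-linked levels, so that embryo and Epcam state cannot be told apart.

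Set against fetal TEC, Epcam-positive cells were lower in 4 of the 8 genes and higher in 1, beside 16.4% of all genes lower and 19.2% higher (35.6% in all). Their median log2 change was -5.99, beside 0.17 over all genes. H2-Aa had a log2 change of -13.76 ± 2.21 (adjusted p = 0.00357), H2-Ab1 of -11.37 ± 1.07 (adjusted p = 0.000151) and Cd74 of -7.57 ± 0.82 (adjusted p = 0.000285). These 3 and Ciita were also called lower without either Epcam-positive library, in fits that assume the lone library to vary like the other groups. A fit of only these 2 groups, with 4 libraries, called Ciita alone, with adjusted p-values of 0.0507, 0.0585 and 0.1 for H2-Aa, H2-Ab1 and Cd74. Day 10 cells were lower than fetal TEC in 5 genes and higher in 1, beside 31.7% of all genes lower and 27.6% higher (59.3% in all), with a median of -10.47 beside -0.10. The log2 changes were -15.25 ± 1.92 for H2-Aa (adjusted p = 0.000692), -15.91 ± 1.01 for H2-Ab1 (adjusted p = 1.09e-05) and -11.33 ± 0.78 for Cd74 (adjusted p = 1.61e-05). Ctss was at least 7843-fold lower at day 10 than in fetal TEC (adjusted p = 0.00555), and H2-DMb1 was the gene that was higher. Whether Cd74 differed from the chain genes in the size of its deficit was not tested.

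The H2-DM genes, whose product loads peptides, took a course of their own. H2-DMa stood at 3.93 and 2.19 CPM in MEF, 1.60 and 1.61 CPM at day 2, 3.53, 3.33 and 3.59 CPM at day 10, 4.05 and 0 CPM in Epcam-positive cells, 3.23 and 4.52 CPM in Epcam-negative cells and 0.123 and 6.63 CPM in fetal TEC. It was called in none of the 8 comparisons by edgeR (unadjusted p = 0.515 to 0.977) or by DESeq2's Wald test. Day 10 against day 2, where the groups were apart, edgeR called it higher with only these 2 groups (log2 change 1.09, adjusted p = 0.000286). It was also called higher without the 3 libraries whose relative counts fell with length (1.08, adjusted p = 0.0127). The fetal TEC pair, with 8 and 327 counts, and the Epcam-positive pair, with 352 and 0, each spanned nearly the whole range. H2-DMa overlaps Brd2 on the opposite strand.

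H2-DMb1 stood at 2.93 and 1.77 CPM in MEF, 0.29 and 0.715 CPM at day 2, 1.02, 0.641 and 0.853 CPM at day 10, 1.58 and 0 CPM in Epcam-positive cells and 0.345 and 1.38 CPM in Epcam-negative cells. It had 0 counts in both fetal TEC libraries, where H2-Aa, H2-Ab1 and Cd74 ranked among the first 10 genes per kb. Fetal TEC was at least 89.7-fold lower than MEF (adjusted p = 0.012) and day 10 at least 32.0-fold higher than fetal TEC (adjusted p = 0.0183). Epcam-positive cells were called higher than fetal TEC (at least 30.1-fold, adjusted p = 0.0323), on counts of 137 and 0 in replicates 1 and 2. With replicate number as a block, the calls of day 10 and Epcam-positive cells against fetal TEC were lost (adjusted p = 0.0547 and 0.0879). Without either fetal TEC library, those of day 10 against fetal TEC (adjusted p = 0.0769 and 0.0707) and of fetal TEC against MEF (adjusted p = 0.052 and 0.0503) were lost, and without any 1 of 9 libraries that of Epcam-positive cells against fetal TEC (adjusted p = 0.0506 to 0.111). H2-DMb2, a near copy of H2-DMb1, had at most 0.221 CPM in any library and 0 in fetal TEC. How reads shared by these near copies were counted is not given, so the level of H2-DMb1 as a single gene is uncertain.

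Ctss, the cathepsin of macrophages and dendritic cells, was high in MEF, in 1 Epcam-positive library and in fetal TEC, and at or near 0 elsewhere. It had 11592 and 11157 counts in MEF, 0 and 8 at day 2, 0 in all 3 day 10 libraries, 1349 and 0 in Epcam-positive replicates 1 and 2, 0 in both Epcam-negative libraries and 7606 and 10561 in fetal TEC. Ctss was at least 9106-fold lower at day 10 than in MEF (adjusted p = 0.0162) and at least 10850-fold lower in Epcam-negative cells than in MEF (adjusted p = 0.0342). Without either MEF library both calls were lost (adjusted p = 0.0538 and 0.0735 at day 10, 0.0885 and 0.128 in Epcam-negative cells). With replicate number as a block they were lost too (adjusted p = 0.0829 and 0.0784), and the call in Epcam-negative cells was lost without any day 2, Epcam-negative or fetal TEC library (adjusted p = 0.0587 to 0.173). Per 1000 CPM of macrophage genes, Ctss stood at 122 and 200 CPM in fetal TEC, at 49.5 CPM in Epcam-positive replicate 1 and at 43.9 and 55.4 CPM in MEF. In fetal TEC, Laptm5 and Lyz2 made up most of that macrophage sum.

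Fetal TEC and MEF did not differ in Ctss beyond the spread (165 ± 69.1 against 192 ± 45.0 CPM, SD, n = 2 each, log2 change -0.22 ± 1.79, adjusted p = 0.933). C1qa was at 0 in each day 2, day 10, Epcam-negative and Epcam-positive replicate 2 library. Of these, day 2 replicate 2 had 8 counts of Ctss and the others had none. Whether macrophages account for Ctss in fetal TEC was not tested.

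**Figure D4:**
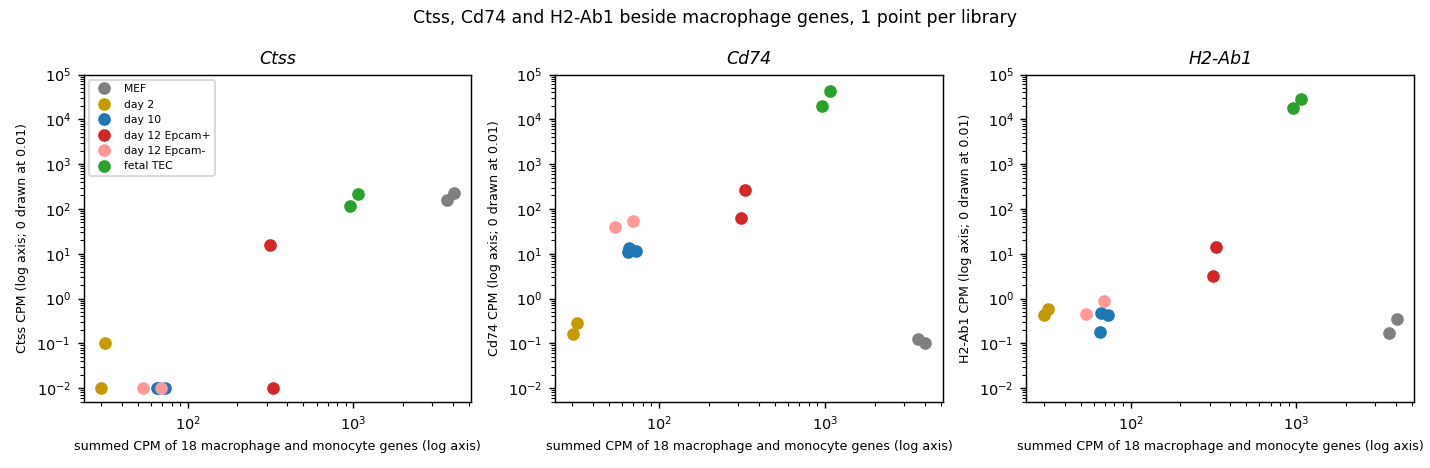
The levels of Ctss, Cd74 and H2-Ab1 in each library are plotted against the summed CPM of 18 macrophage and monocyte genes on logarithmic axes, with 0 drawn at 0.01. MEF libraries, which have the highest macrophage sums (3652 and 4041 CPM), have the most Ctss along with fetal TEC but at most 0.124 CPM of Cd74.

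Other genes of the class II route, from lists chosen with earlier results known, were called most often in fetal TEC against MEF. Of 10 genes on the interferon gamma route to Ciita, 6 were higher and 2 lower in fetal TEC than in MEF (median log2 change 1.30), beside 31.5% of all genes higher and 26.3% lower. Irf1, a transcription factor that interferon gamma induces, stood at 1688 and 1830 CPM in fetal TEC, against 15.3 and 12.5 CPM in MEF (log2 change 6.98 ± 0.33, adjusted p = 1.02e-05). Ifng itself stood at 0.582 and 0.609 CPM in fetal TEC and at 0 in all other libraries. At day 2, edgeR called 1 of the 10 genes higher than in MEF, beside 2.87% of all genes higher. It was Irf1, at 126 and 134 CPM at day 2 (log2 change 3.23 ± 0.27, adjusted p = 0.000228). In that comparison 4 of the 10 had an unadjusted p under 0.05, and DESeq2's Wald test called 3.

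By day 10 Irf1 was lower than at day 2, at 28.9, 27.9 and 25.5 CPM at day 10 (log2 change against day 2 -2.25 ± 0.23, adjusted p = 0.000329). Cd74 had 10.8 to 13.6 CPM at day 10 and 0.163 and 0.286 CPM at day 2. Among the libraries of days 10 and 12, Epcam-positive replicate 2 had the most Irf1 (36.6 CPM) and the most Cd74 (259 CPM), and fetal TEC had the most of both.

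Of the 10 promoter factors that sit with Ciita on class II promoters, 0 were called by edgeR against MEF at day 2, at day 10 or in Epcam-negative cells, where 0, 1 and 2 had an unadjusted p under 0.05 and DESeq2's Wald test called 0, 1 and 2. Against MEF, fetal TEC was higher in 3 (Rfxap, Rfxank, Nfyc) and lower in 5 (median log2 change -1.43), beside 31.5% of all genes higher and 26.3% lower. Rfxap, a subunit of RFX, stood at 52.5 and 50.7 CPM in fetal TEC, against 11.1 and 11.03 CPM in MEF (log2 change 2.22 ± 0.36, adjusted p = 0.00133). Ep300, a coactivator, stood at 13.7 and 10.6 CPM in fetal TEC, against 164 and 262 CPM in MEF (log2 change -4.13 ± 0.76, adjusted p = 0.00234). Both fetal TEC libraries were among those whose relative counts fell with transcript length, and no length-corrected change is given for these factors.

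Of 11 genes of class II traffic and proteolysis, 5 were higher and 3 lower in fetal TEC than in MEF (median log2 change 1.41), near the background of 31.5% higher and 26.3% lower. Ctsl, the cathepsin that trims Cd74 in cortical TEC, stood at 7520 and 11536 CPM in fetal TEC, against 610 and 783 CPM in MEF (log2 change 3.77 ± 0.52, adjusted p = 0.00063). Prss16, the thymus-specific serine protease, stood at 11557 and 14182 CPM in fetal TEC, against 0.304 and 0.14 CPM in MEF (log2 change 15.78 ± 1.82, adjusted p = 0.000252). In Epcam-positive replicates 1 and 2, Prss16 stood at 0.874 and 24.7 CPM. Lgmn, an endosomal protease, fell at day 2, at day 10 and in Epcam-negative cells against MEF by 2.52, 2.17 and 1.87 on the log2 scale (adjusted p = 0.000858, 0.000354 and 0.00198). Ctsb fell in the same 3 comparisons. The 18 macrophage and monocyte genes summed to 3652 and 4041 CPM in MEF and to 30.1 to 72.8 CPM in these iTEC groups. The part of macrophage reads in these falls was not tested.

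Of 8 costimulation and tolerance genes, 6 were called in fetal TEC against MEF, all 6 higher (median log2 change 5.55), beside 31.5% of all genes higher. Cd40 stood at 330 and 445 CPM in fetal TEC, against 0.926 and 1.08 CPM in MEF (log2 change 8.59 ± 0.93, adjusted p = 0.000188), and at 0 to 0.736 CPM in the iTEC libraries. Aire, the regulator of self antigens in medullary TEC, stood at 101 and 183 CPM in fetal TEC and had no count in any MEF-derived library. Day 10 cells were lower than fetal TEC in 7 of the 8, beside 31.7% of all genes, and Epcam-positive cells in 6, beside 16.4%.

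**Figure D5:**
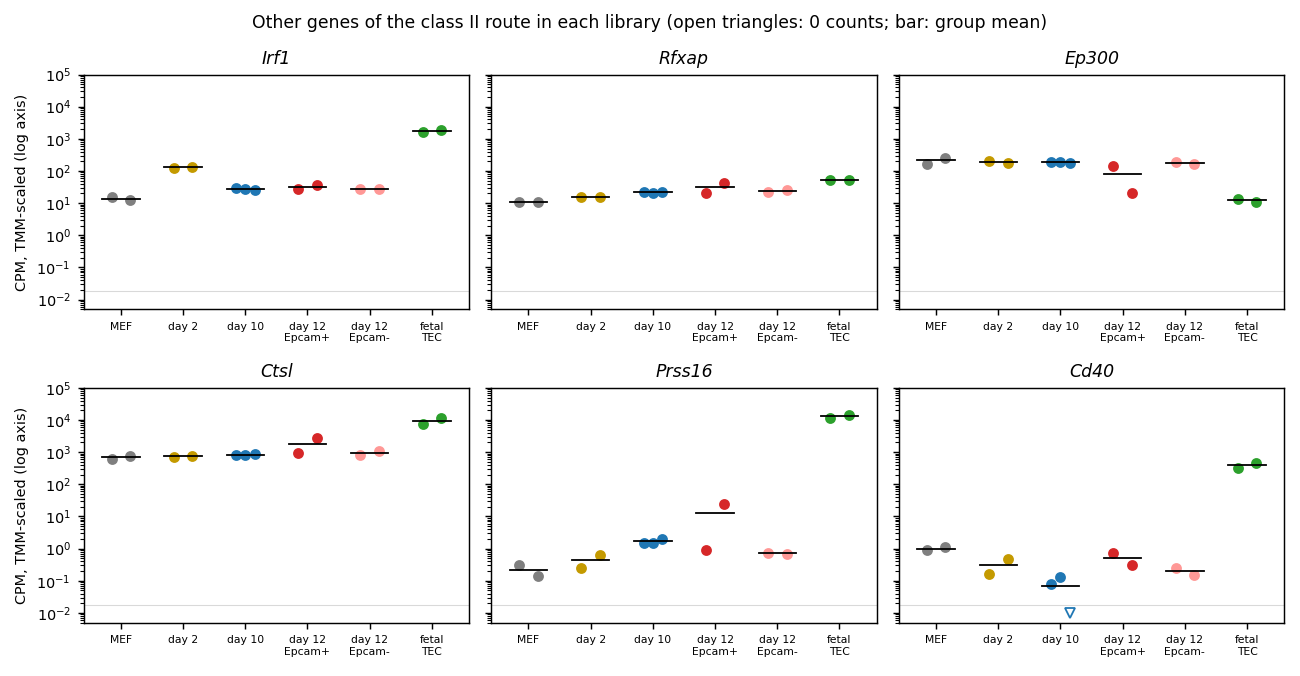
The levels of 6 other genes of the route, chosen after their values were seen, are plotted in TMM-scaled CPM on a logarithmic axis, with 1 point per library, a bar at the group mean and open triangles for 0 counts. Irf1 peaks among the MEF-derived groups at day 2, while Prss16 and Cd40 stand highest in fetal TEC. Ep300 is lower in fetal TEC, where relative counts fell with transcript length, than in MEF.

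Of 5 other class II region genes, 2 passed the filter on low counts. H2-Ob, which with H2-Oa forms a partner that restrains H2-DM, stood apart in 1 library. It had 91.7 CPM in Epcam-positive replicate 2 and 0 in replicate 1, against 0 in both Epcam-negative libraries, and 2.31 and 4.69 CPM in fetal TEC. The comparison of Epcam-positive with Epcam-negative cells did not call it (adjusted p = 0.217).

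Among 13500 tested genes outside the 8 with at least 5 CPM in their highest group, those whose log2 CPM was most like the mean of H2-Aa, H2-Ab1, H2-Eb1 and Cd74 over the 13 libraries were Sez6 (Pearson r 0.995), the histone gene Hist1h2ab (0.992), Zbtb8b (0.991), and the histone genes Hist1h2ah (0.991) and Hist1h2ai (0.989). Those most like Ciita were Tmprss11d, Kremen2, Cldn7, Fermt1 and Ocln, at 0.998 to 0.999. Without the 2 fetal TEC libraries, which set most of these values, r fell to 0.883 to 0.947 for the first 5 and to 0.744 to 0.818 for the second 5. The libraries fall into a fetal TEC set and a rest, share their group structure, and the values are given as a description without a p.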

How the data were processed

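RNA was sequenced in 13 mouse libraries of 6 groups. The authors deposited whole-number counts for each symbol, unscaled. The mm10 build and HISAT2, StringTie, SAMtools, Trimmomatic, FastQC and DESeq2 are listed per the submitters' processing notes, with no role, version or setting. The handling of shared reads and of strand is not given. Columns whose names say no Cre stand for MEF here.

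All 13 libraries entered 1 edgeR 4.0.16 quasi-likelihood fit (R 4.3.3, TMM scaling, robust, genes kept by filterByExpr, 1 mean per group), with Benjamini-Hochberg adjustment over 17004 of 24394 genes and calls at an adjusted p under 0.05. SE is the size of the log2 change over the root of F. Bounds against a group at 0 set that group to 3 counts over the group and cover counting error only. Library totals of 35805780 to 86465460 counts put 3 counts at 0.0300 to 0.0776 CPM. Lengths came from GENCODE M21 (95.7% of symbols), and promoter windows from RefSeq on GRCm38.p6.

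Alternatives were DESeq2 1.42.0 (Wald test and size factors), other filters and scalings, a transcript length offset, only the groups compared, and replicate number as a block. Other alternatives left out each library, or the 3 libraries whose relative counts fell with length. The fit was tested on simulated counts. Named genes were the 8 genes, up to 3 per list with the smallest p in a comparison described, Foxn1, Epcam, Lyz2, C1qa and Csf1r, and the genes most alike in pattern. A gene of the interferon gamma list is not reported here. Genes given beside these were chosen after their values were seen. The 8 genes and the lists were chosen with earlier results of these data known.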

Additional observations from a re-analysis of the deposited data

How the results depend on the processing

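The number of the 8 genes called moved by over 1.5 times as follows. Day 2 against MEF it was 0, and 2 by DESeq2's Wald test, 1 with only the groups compared and 3 without the 3 libraries whose relative counts fell with length. Day 10 against MEF it was 3, and 6 with only the groups compared. Day 10 against day 2 it was 1, and 4 by the Wald test, 5 with only the groups compared and 2 without those 3 libraries. Epcam-negative against MEF it was 3, and 1 with the replicate block. Epcam-positive against Epcam-negative it was 0, and 3 by the Wald test and 1 without those 3 libraries. Epcam-positive against fetal TEC it was 5, and 1 with only the groups compared. Leaving out 1 library gave 0 to 2 for day 2 against MEF, 2 to 3 for day 10 against MEF, 1 to 2 for day 10 against day 2, 1 to 3 for Epcam-negative against MEF, 0 to 5 for Epcam-positive against Epcam-negative, 4 to 7 for Epcam-positive and 5 to 7 for day 10 against fetal TEC, and 4 to 6 for fetal TEC against MEF. Day 2 against MEF and day 10 against day 2 both reached 2 without either Epcam-positive library. Epcam-negative against MEF fell to 1 without MEF replicate 1 or 2 or Epcam-negative replicate 2. Epcam-positive against Epcam-negative reached 5 without Epcam-positive replicate 1 and 1 without replicate 2. Over all genes, the percent called ranged across settings from 2.3 to 39.5 for day 2 against MEF, 6.12 to 56.6 for day 10 against MEF, 4.89 to 73.2 for day 10 against day 2, 5.38 to 53.2 for Epcam-negative against MEF, 0 to 10.2 for the Epcam fractions, 1.4 to 41.2 for Epcam-positive and 41.4 to 73.6 for day 10 against fetal TEC, and 46.5 to 61.3 for fetal TEC against MEF. Of the 63 log2 changes of single genes, 24 were called and 14 of these passed the threshold under every alternative. Those that reversed were not called as reported. Epcam-positive against Epcam-negative, H2-DMa stood at 0.02 and H2-DMb1 at 0.81 without the 3 libraries. H2-DMa day 10 against fetal TEC stood at -0.13 with DESeq2's size factors, -0.06 with a stricter filter, -0.13 by the Wald test and -0.03 with the replicate block. H2-DMa fetal TEC against MEF stood at -0.20 with library size alone and -0.37 with the length offset. Leaving out 1 library, log2 changes of Epcam-positive against Epcam-negative ran from -0.41 to 1.39 for Ciita, -1.80 to 8.28 for H2-Aa, -10.87 to 0.06 for H2-DMa, -8.71 to 1.20 for H2-DMb1 and -7.69 to 1.33 for H2-Eb1. Those of H2-DMa ran from -0.02 to 0.81 in Epcam-negative cells against MEF, -10.65 to 4.05 in Epcam-positive cells against fetal TEC, -0.17 to 0.65 at day 10 against MEF, -0.92 to 4.82 at day 10 against fetal TEC and -4.63 to 1.11 in fetal TEC against MEF, and Ctss in fetal TEC against MEF from -0.73 to 0.15. For H2-Aa at day 2 against MEF, at 0 in both, no value can be given. Deviations of same-numbered libraries from their group means correlated at -0.36 to 0.22 across genes, and the labels do not say that the numbers pair them. The replicate block also lost Ctss day 10 against MEF, H2-DMb1 in Epcam-positive and day 10 cells against fetal TEC and H2-Eb1 in fetal TEC against MEF. The causes were not tested. With 2 or 3 libraries a group and few counts for several genes, small changes of these genes were not detectable at this depth.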
